A study of Ovis aries with 24 samples.

Results

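The 100 genes described here were the candidate reference genes of the developing lamb stomach: the genes whose level varied least over all 4 stomach chambers and both ages. They were chosen by their measured values, out of 27054 genes listed. The level of a gene was its CPM (counts per 1000000), the gene's share of all counted reads of the library multiplied by 1000000. A gene was eligible when its lowest CPM over the 24 libraries was at least 10 and below 200, which 5134 genes met. For each eligible gene the log2 CPM was centred, that is, the library's median log2 CPM over the eligible genes was subtracted, and the 100 genes with the smallest standard deviation (SD) of this centred level were taken. They made up 1.95% of the eligible genes.

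A reference gene is a transcript used as an internal scale: the level of other genes is read against it in quantitative PCR, and scaling factors of sequencing libraries rest on the same idea. The usual choices are housekeeping genes, which encode parts of machinery that every cell needs, such as the cytoskeleton, the ribosome and glycolysis. The ruminant stomach is a demanding case, since the rumen, reticulum and omasum form a forestomach lined by a stratified keratinized epithelium, while the abomasum is a glandular stomach that secretes acid and digestive enzymes.

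Lambs of d5 and d10 of age were slaughtered, and epithelium freed of the muscle layer was taken from each chamber: rumen, reticulum, omasum and abomasum. Each of the 8 combinations of chamber and age had 3 libraries, which gave 6 per chamber. No treatment or genotype separated the groups, and the study's methods, written for rumen samples, describe male Hu lambs raised with their mothers on ewe's milk, with starter pellets offered from d10, 3 lambs per age. Those methods cover d5 and older ages but not d10, so whether breed, sex, feeding and number hold for the d10 lambs is not stated. The labels carry a replicate number but do not name the animal, so tests measure the spread between these libraries.

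The libraries held 13041697 to 19650121 counted reads, so that 1 read was worth 0.0509 to 0.0767 CPM. All 24 pairs of libraries of one group differed beyond counting noise (chi-square per degree of freedom 20.2 to 745 over all genes). The genes were listed by Ensembl identifier without names, and 0 of the 27054 identifiers, and so 0 of the 100 members, matched the sheep RefSeq table used here for names. Each gene is therefore given by its identifier, without a role or a sequence. For the same reason the tissue labels could not be compared with marker genes. Instead, 27 genes were picked from the values, namely those that reached 100 CPM in each abomasum sample while no rumen library exceeded 1% of the lowest abomasum value. Of these, 0 were members, which was fixed in advance, since members stayed within 1.73-fold after centring. Their median level was 60.7% of the abomasum level in omasum d5 library 2 and 6.61% in omasum d5 library 1, and at most 0.0784% in the other 16 forestomach libraries. The picking rule itself held the rumen libraries low. Outside the rumen the highest of these other libraries was reticulum d5 library 3, with 0.0697%. Omasum d5 libraries 1 and 2 therefore stand apart from their label, and results that rest on them are also given without them.

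The spread that the choice rested on was small for every member. The SD of the centred log2 level ran from 0.11 to 0.17 over the members, with a median of 0.15, against a median of 0.38 and a highest value of 3.75 over all eligible genes. In fold terms, the highest library exceeded the lowest by 1.33-fold to 1.73-fold, with a median of 1.52-fold, while the eligible genes had a median of 2.85-fold. The highest and lowest library lay within 1.5-fold of each other for 44 members and for 49 eligible genes in all (0.954%). All 100 members stayed within 2-fold, as 896 eligible genes did (17.5%). These figures describe the choice and carry no test.

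**Figure D1:**
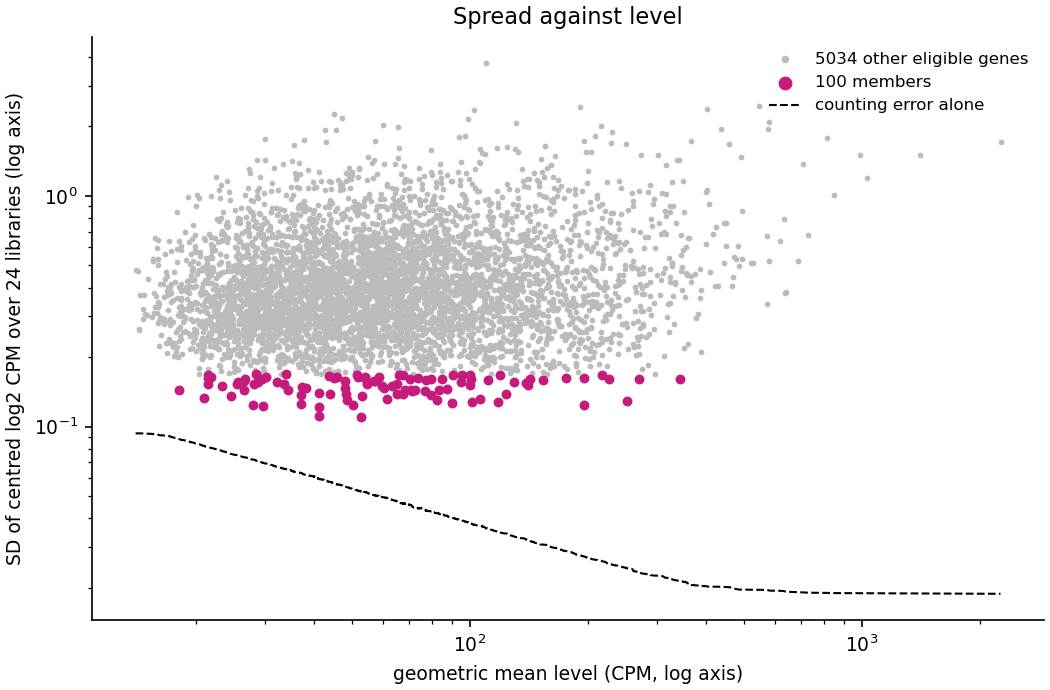
Spread against level for the eligible genes: the SD of the centred log2 CPM over 24 libraries (vertical, log axis) against the geometric mean CPM (horizontal, log axis), with the 100 members in colour and the running median of the SD that counting error alone would give as a dashed line. The members form the lower edge of the cloud at 0.11 to 0.17, above the counting line, at mean levels from 18.1 to 343 CPM.

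The rule asked for at least 10 CPM in every library, which 5324 of the 27054 genes listed met. Among the eligible genes the members were of middling abundance. Their geometric mean level ran from 18.1 to 343 CPM with a median of 57.8 CPM, close to the eligible median of 56.1 CPM. The limits on the level did not draw the choice to one end: the members were 1.66% of the 481 eligible genes with a mean below 25 CPM, 1.77% of the 1753 genes from 25 to 50 CPM, 2.37% of the 1727 genes from 50 to 100 CPM, 1.75% of the 855 genes from 100 to 200 CPM and 1.57% of the 318 genes above. The members' lowest count in any library was 161 and the highest was 7784. At these depths counting error alone would give a median SD of 0.049, or 10.1% of the members' variance in the median (1.70% over the eligible genes). Most of what variation the members did show was thus larger than the counting error of the reads, which does not include variation from library preparation.

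The most stable gene, ENSOARG00000009591, had an SD of 0.11 and a geometric mean of 52.8 CPM. In the rumen it ranged from 55.3 to 66.5 CPM with a median of 59.3 CPM, in the reticulum from 47.4 to 65.0 CPM with a median of 57.5 CPM, and in the omasum from 42.1 to 68.1 CPM with a median of 57.4 CPM. The abomasum libraries lay lower, from 35.7 to 48.0 CPM with a median of 40.1 CPM. They overlapped the reticulum only through reticulum d5 library 1 (47.4 CPM), and the omasum only through omasum d5 library 2 (42.1 CPM). Without omasum d5 libraries 1 and 2 the lowest omasum value was 56.2 CPM, above the abomasum range. After centring, the chamber order disappeared: its mean relative to its own average was -0.025 ± 0.063 on the log2 scale in the rumen, -0.0063 ± 0.12 in the reticulum, 0.0083 ± 0.083 in the omasum and 0.023 ± 0.17 in the abomasum (SD, n = 6 each). The 6 abomasum libraries thus differed among themselves more than the chambers differed from each other.

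The second, ENSOARG00000019264, had the narrowest range of any eligible gene, 1.33-fold between its highest and lowest library. Its CPM ran from 43.2 to 53.6 in the rumen, 39.6 to 48.5 in the reticulum, 36.9 to 52.9 in the omasum and 24.8 to 40.6 in the abomasum, with medians of 49.2, 45.0, 42.1 and 32.7 CPM. Here too the abomasum was lowest in plain CPM. Its centred chamber means ranged only from -0.024 in the reticulum to 0.028 in the rumen.

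The next genes in the order were ENSOARG00000000401 (SD 0.122), ENSOARG00000017285 (SD 0.122), ENSOARG00000012741 (SD 0.123) and ENSOARG00000015288 (SD 0.124). They differed in where their remaining variation lay. For ENSOARG00000000401 the reticulum was the highest chamber, at 0.10 ± 0.10 on the centred log2 scale, against -0.050 ± 0.13 in the rumen. For ENSOARG00000015288 the abomasum was the lowest, at -0.088 ± 0.10, against 0.041 ± 0.17 in the reticulum and 0.041 ± 0.050 in the omasum (SD, n = 6). In each of these the libraries of the chambers overlapped.

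The threshold fell in a dense part of the ranking. The last gene inside, ENSOARG00000015678, had an SD of 0.16825, and the first gene outside, ENSOARG00000018543, one of 0.16867. The former was lowest in the omasum (mean centred level -0.17 ± 0.12, n = 6) and highest in the abomasum (0.093 ± 0.11). At both ends of the abundance range the abomasum had the lowest median CPM. The least abundant member, ENSOARG00000013001, had medians of 21.1, 19.3, 20.5 and 14.5 CPM in rumen, reticulum, omasum and abomasum, and the most abundant, ENSOARG00000007183, medians of 415, 402, 349 and 222 CPM. The latter kept a chamber gradient after centring, from 0.13 ± 0.12 in the reticulum to -0.16 ± 0.19 in the abomasum.

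**Figure D2:**
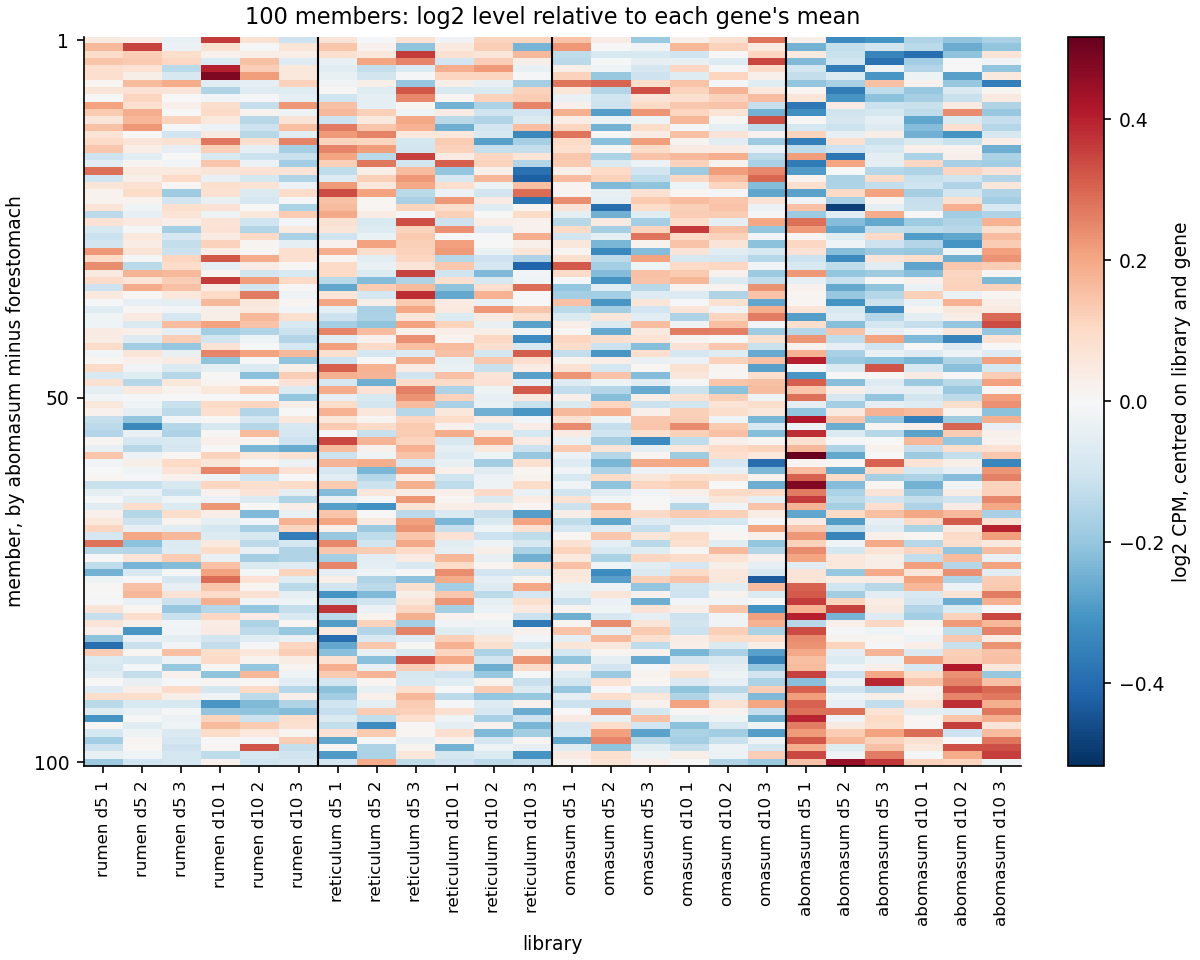
Centred log2 CPM of the 100 members (rows, ordered by abomasum minus forestomach) in the 24 libraries (columns, by chamber and age), relative to each gene's own mean; red is higher and blue lower, and the scale covers the full range from -0.48 to 0.52. Both extremes are in abomasum libraries, and the rumen columns are the palest block.

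Chamber accounted for less of the members' variation than of other genes'. With the variance of each gene divided among chamber, age, their interaction and the spread within groups, chamber held a median of 19.5% for the members and 46.1% for the eligible genes, and the spread within groups held 63.5% and 38.8%. Age held 2.51% and 2.11%. The difference between the abomasum mean and the forestomach mean ran from -0.25 to 0.26 on the log2 scale over the members, with a median size of 0.077, against 0.44 for the eligible genes. The difference between d10 and d5 ran from -0.16 to 0.14 with a median size of 0.046, against 0.11. For 0 of the 100 members did all abomasum libraries lie outside the forestomach range, while this held for 270 eligible genes above it and 190 below it (8.96% of the eligible genes). All of these follow from the choice and are given as a description.

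The variation left was not spread evenly over the libraries. The abomasum held the highest library of 46 members and the lowest of 39, and at least one extreme of 72 members (83.1% of the eligible genes). Among the eligible genes it held the highest library of 46.75% and the lowest of 42.99%, so its large share was not particular to the members. The reticulum held the highest library of 27 members and the lowest of 27, against 19.6% and 22.4% of the eligible genes. The omasum held 14 and 23, against 15.7% and 18.3%. The rumen held the highest library of 13 members and the lowest of 11, both smaller shares than among the eligible genes. Within one chamber, the members' median SD over 6 libraries was 0.10 in the rumen, 0.13 in the omasum, 0.14 in the reticulum and 0.17 in the abomasum, and the eligible genes followed the same order with 0.19, 0.25, 0.27 and 0.33. Abomasum d5 library 1 was the least typical: 16 members were off their mean by over 1.25-fold there, against 0 to 9 in the other libraries. Without omasum d5 libraries 1 and 2, the members' median SD was 0.15 and that of the eligible genes 0.39.

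A value that the choice did not use is the spread in libraries left out of it. The same rule was applied to the 12 d5 libraries alone, and the 100 genes it gave were measured in the 12 d10 libraries, where 99 of them were eligible. Their median SD at d10 was 0.20, against 0.38 for all genes eligible at d10. Of the 99, 92 (92.9%) lay below that eligible median and 56 (56.6%) at or below its 10th percentile. In the other direction, 90 of the genes chosen at d10 were eligible at d5, with a median SD of 0.19 against 0.38, and all 90 lay below the eligible median, with 54 (60.0%) at or below the 10th percentile. The lists themselves overlapped less than the property did: the choices at d5 and at d10 shared 17 genes of 100 each, and all 17 were members. Lambs were slaughtered for sampling, so the ages came from different animals, but both came from the same chambers and the same study, and the d5 libraries included the omasum libraries that stand apart (without them, 0.21).

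Reference genes are also judged by how steady the ratio between them is, which needs no library scale at all. The geNorm measure M of a gene is its mean pairwise variation, the SD of its log2 ratio to every other gene of the set. With the other members as partners, M ran from 0.17 to 0.23 over the 100 members with a median of 0.20. With all other eligible genes as partners, the eligible genes had a median of 0.60. M also depends on the spread of the partners, so these medians cannot be compared directly. Of the 100 eligible genes with the lowest M against all eligible genes, 89 were members. The ranking by ratios and that by centred levels thus picked largely the same genes. They use the same counts and are not independent.

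When the member with the highest M was removed step by step, the pair kept last was ENSOARG00000002125 and ENSOARG00000008776, the seventh and fifteenth in the order of SD. ENSOARG00000002125 had medians of 217, 213, 216 and 152 CPM in rumen, reticulum, omasum and abomasum, and ENSOARG00000008776 had 119, 117, 120 and 80.9 CPM. The 2 genes fell together in the abomasum, and their ratio stayed between 1.71 and 2.13 over the 24 libraries with a median of 1.82. The highest ratio was in omasum d5 library 2 and the next was 1.98, in abomasum d5 library 3. Adding a member to the scale made by this pair moved it by a pairwise variation of 0.032. A ratio stays flat also when both genes move together. Over all pairs of members the correlation of centred levels across the 24 libraries had a median of 0.089 and ran from -0.76 to 0.85. All pairs share the same libraries and the same centring.

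The members, like the eligible genes together, held a smaller part of the reads in the abomasum. Their summed CPM was 8311, 8380 and 8537 in the rumen libraries at d5 and 8895, 8954 and 9227 at d10. In the reticulum it ran from 7792 to 8565 with a median of 8355, and in the omasum from 5990 to 8982 with a median of 8266. In the abomasum it ran from 4741 to 6701 with a median of 5781, so that all 6 abomasum libraries lay below all 6 of the rumen. The means were 8717 ± 363 in the rumen, 8245 ± 333 in the reticulum, 8006 ± 1034 in the omasum and 5753 ± 756 in the abomasum (SD, n = 6). Relative to the rumen these were -5.42%, -8.17% and -34.0%. The eligible genes together held a mean of 50.9% of the counts in the rumen and 35.6% in the abomasum. Of the counts of the eligible genes, the members held a mean of 1.71% in the rumen and 1.62% in the abomasum. The choice kept genes that follow each library's median over the eligible genes. A lower sum where that median is lower follows from the choice. The reticulum and the omasum overlapped the rumen. The lowest omasum value, 5990, came from omasum d5 library 2, the library with abomasal transcripts. Without omasum d5 libraries 1 and 2 the difference from the rumen was -233 CPM, in place of -712 CPM with them.

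**Figure D3:**
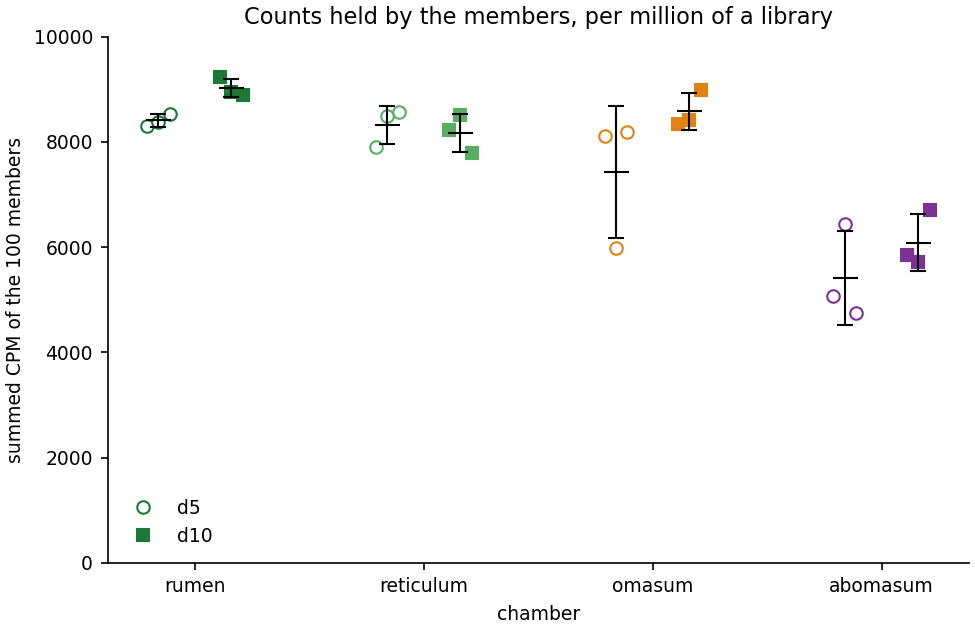
Summed CPM of the 100 members in each library (vertical axis from 0) by chamber, with open circles for d5 and squares for d10, and the mean and SD of the 3 libraries of a group in black. The abomasum libraries lie at 4741 to 6701 and omasum d5 library 2 at 5990, below the other libraries, whose lowest is 7792.

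Beside this, the 10 most abundant genes of a library took 22.1% to 49.2% of the reads in the abomasum, 35.4% in omasum d5 library 2 and 6.86% to 14.1% in the other forestomach libraries. CPM is a share of a fixed total, so the share held by the rest moves with the share of such genes. Their part in the lower summed CPM was not tested. Nor can fewer cells that hold a transcript be told apart from less of it per cell in RNA from whole epithelium. In plain CPM all 100 members were lower in the abomasum than in the forestomach, with differences from -0.79 to -0.27 on the log2 scale and a median of -0.54, and their median SD was 0.31. The libraries' median over the eligible genes differed by -0.53 in the same comparison. The choice kept genes close to that median, so the members' common direction in plain CPM follows from the choice.

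How far the members could serve as a scale was read from the libraries' scale by each measure. The scale of a library is the log2 level its genes have relative to its total. The abomasum mean lay below the forestomach mean by 1.45-fold by the median of the eligible genes, and by 1.45-fold by the mean of the 100 members. It was 1.47-fold by the 10 members of smallest SD, 1.45-fold by the first 3 and 1.42-fold by ENSOARG00000009591 alone. TMM, the trimmed mean of log ratios that edgeR uses, gave 1.60-fold, and the size factors of DESeq2 gave 1.67-fold. Fewer members followed the eligible median less closely: the SD of the difference over the 24 libraries was 0.11 with 1 member, 0.076 with 3, 0.056 with 10 and 0.043 with 100. The centring used that same median, so these SDs describe the choice. From TMM the 100 members differed with an SD of 0.11 and by up to 0.30, in abomasum d5 library 1.

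**Figure D4:**
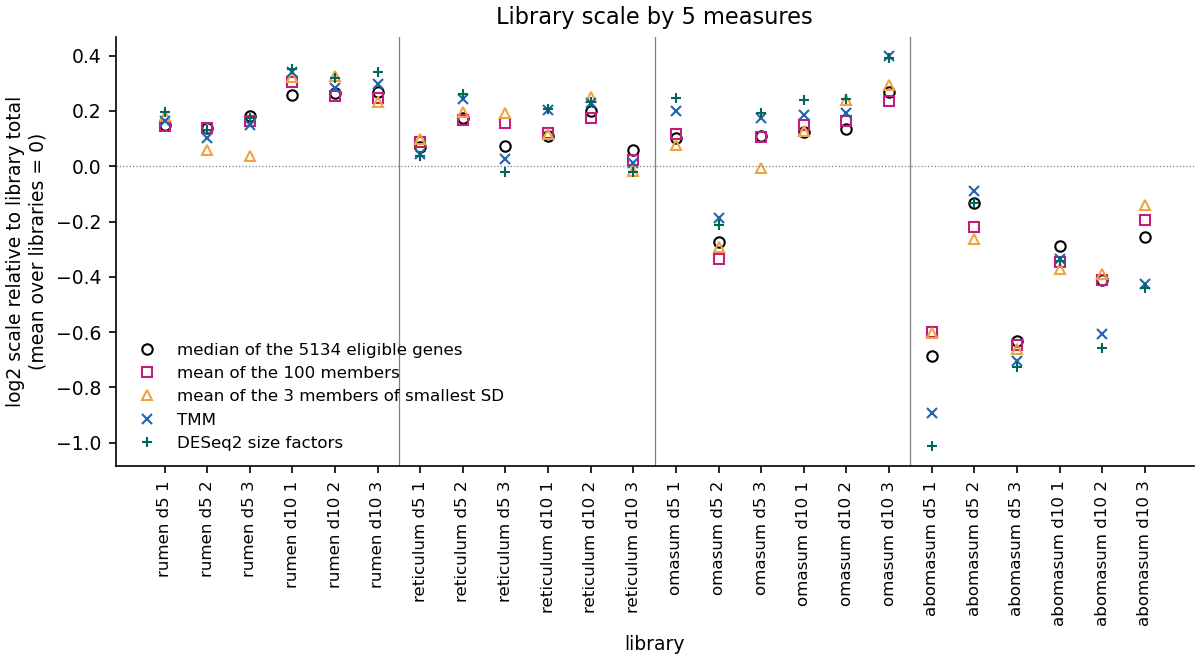
Log2 scale of each of the 24 libraries relative to its total, set to a mean of 0 over libraries, by the median of the 5134 eligible genes, the 100 members, the 3 members of smallest SD, TMM and DESeq2. The measures lie closer together in the forestomach, where omasum d5 library 2 alone falls below -0.1, and spread apart in abomasum d5 library 1, from -0.60 by the members to -1.01 by DESeq2.

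The members were then placed in a test across all genes. edgeR's quasi-likelihood test compared the rumen with each other chamber over both ages, with p-values adjusted by Benjamini-Hochberg over 16195 genes and an adjusted p under 0.05 counted as a call. The choice had favoured genes that differ little between these same libraries, so nothing is read from the members' counts. Between rumen and reticulum 0 of the 100 members were called, 1 of them at an unadjusted p under 0.05, beside 7.47% of all genes, and DESeq2 called 0 members beside 10.9%. The 1209 calls behind the 7.47% became 669 to 793 when any 1 rumen library other than d10 library 2 was removed, and 698 without reticulum d10 library 2. Between rumen and omasum 0 were called, 5 at an unadjusted p under 0.05, beside 15.1% of all genes. That background rested on the omasum libraries that stand apart: without d5 libraries 1 and 2 the calls on all genes fell from 2443 of 16195 to 821 of 17038, with 0 members called and 1 at an unadjusted p under 0.05. DESeq2 called 1 member there beside 17.8%: ENSOARG00000017143, named after its value was seen, with a log2 difference of 0.28. Between rumen and abomasum 19 members were called, all lower in the rumen by 1.20-fold to 1.37-fold, beside 55.8% of all genes. DESeq2 called 33, also lower in the rumen, beside 51.9%, and edgeR without a filter on low counts called 5, beside 9138 of 22380 genes. Single libraries moved the 19 calls: removing rumen d10 library 3 or omasum d10 library 3 left 6 calls and removing rumen d10 library 2 left 10, while 31 were made when abomasum d10 library 1 was removed and 34 when abomasum d5 library 2 was. Over single libraries left out, 8436 to 9265 of all genes were called.

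That direction depended on the scale. Under TMM the members' median difference between rumen and abomasum was -0.15 on the log2 scale, with 85 of the 100 below 0, and the median over all genes was 0.050. With the libraries scaled by the 100 members themselves the medians were 0.019 and 0.20, and 8 members were called, 4 higher and 4 lower in the rumen, by 1.19-fold to 1.23-fold, beside 56.8% of all genes. That scale is the members' own median count in each library, which sets their median difference near 0. Neither that median nor the split of the 8 calls is therefore a result about the members. The calls on all genes were 4535 higher and 4509 lower in the rumen under TMM, and 5322 higher and 3878 lower under the members' scale. For the other chambers the members' scale called 0 members beside 6.59% for the reticulum and 14.5% for the omasum, with 2 and 4 members at an unadjusted p under 0.05. Without omasum d5 libraries 1 and 2 this scale called 784 of 17038 genes between rumen and omasum in place of 2350 of 16195, and 0 members. Of the members called against the abomasum, 4 were called under both scales.

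Under TMM the called members with the largest differences were ENSOARG00000016335 and ENSOARG00000014046. ENSOARG00000016335 ranged from 116 to 129 CPM in the rumen, with a median of 123 CPM, and from 70.4 to 117 CPM in the abomasum, with a median of 104 CPM. The abomasum was thus lower in plain CPM, and both scalings turned the sign. Relative to the abomasum its rumen level was -0.45 ± 0.12 on the log2 scale under TMM and -0.28 ± 0.097 under the members' scale (SE). ENSOARG00000014046 ranged from 20.8 to 26.0 CPM in the rumen and from 14.7 to 26.7 CPM in the abomasum, so that the libraries overlapped, and its difference was -0.43 ± 0.095 and -0.28 ± 0.10. In the other direction, under the members' scale, ENSOARG00000010090 was 0.30 ± 0.11 higher in the rumen, with 24.2 to 30.6 CPM there and 11.5 to 18.2 CPM in the abomasum, and ENSOARG00000005163 was 0.28 ± 0.098 higher, with 78.7 to 123 CPM against 38.5 to 63.8 CPM. For these genes the rumen and abomasum libraries did not overlap in plain CPM, in which all 100 members were lower in the abomasum than in the forestomach. On the centred log2 scale ENSOARG00000010090 ran from -0.028 to 0.35 in the rumen and from -0.26 to -0.095 in the abomasum. ENSOARG00000005163 overlapped on that scale, with -0.082 to 0.48 in the rumen and -0.30 to 0.051 in the abomasum.

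**Figure D5:**
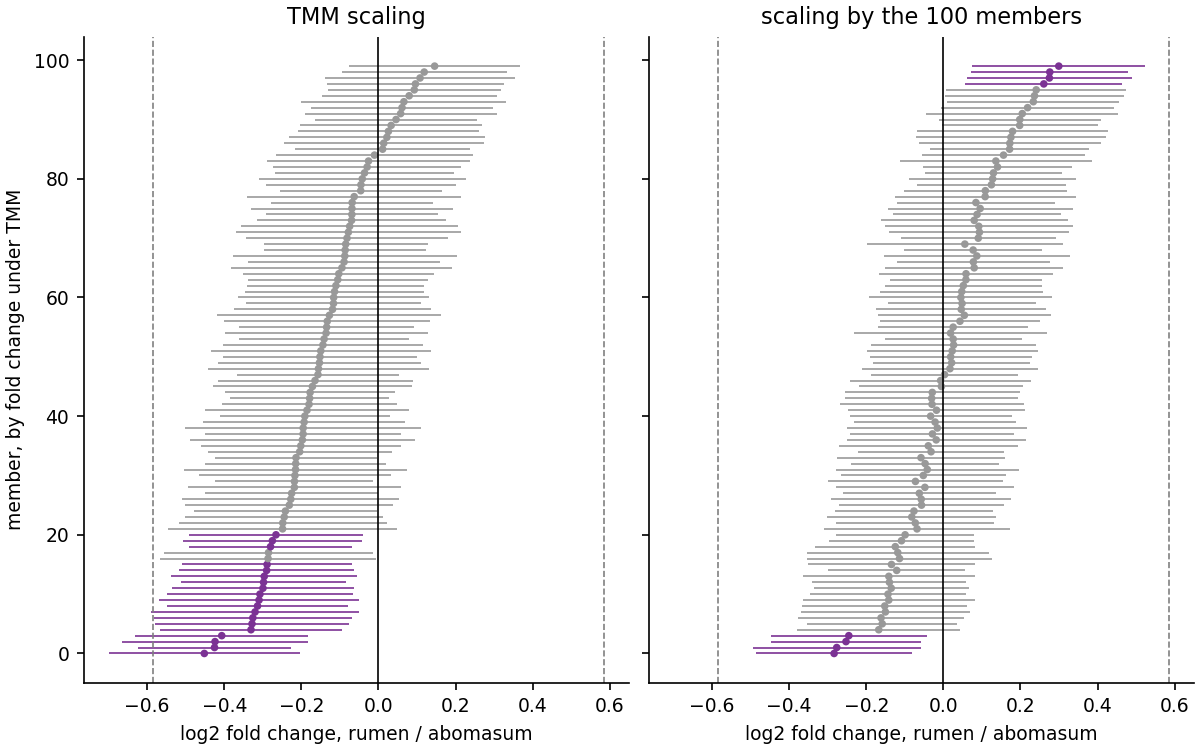
Log2 fold change between rumen and abomasum (horizontal axis, 95% interval as bars) for the 100 members, ordered by their value under TMM, with TMM scaling on the left and scaling by the members on the right; coloured points passed an adjusted p under 0.05 and dashed lines mark 1.5-fold. The same order of genes is shifted from a median of -0.15 on the left to 0.019 on the right, where 4 points are called on each side. The scale on the right is made from these same genes, which sets their median near 0.

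The members' intervals are a description too, since the rule kept genes of small spread in these same libraries. The 95% interval of the difference lay within 1.5-fold either way for all 100 members between rumen and reticulum and between rumen and omasum, and for 95 members between rumen and abomasum under TMM. The same held for 23.9%, 25.8% and 12.4% of all genes tested.

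With age, 0 members were called in any chamber. In the rumen edgeR called 9.84% of all genes between d10 and d5 and 5 members passed an unadjusted p under 0.05, while DESeq2 called 0 members beside 15.0% of all genes. The 1430 calls behind the 9.84% depended on single libraries: 187, 205 and 316 were left without rumen d5 library 1, 2 and 3, and 301 without rumen d10 library 1. Scaling by the members left 1421 genes called in place of 1430, but split them into 923 higher and 498 lower at d10, in place of 755 and 675 under TMM. In reticulum, omasum and abomasum edgeR called 0% of all genes each (0, 0 and 0 calls), and 0 members passed an unadjusted p under 0.05. DESeq2 called 0 members there beside 0.914%, 1.32% and 0.864% of all genes. With 3 libraries an age, the interval of the age difference lay within 1.5-fold for 99 members in the rumen and 95 in the omasum, but for 45 in the reticulum and 7 in the abomasum, beside 34.2%, 17.4%, 6.21% and 0.319% of all genes. Under the members' scale it did so for 100, 91, 73 and 36 members in the same order, beside 33.7%, 16.9%, 8.15% and 2.24% of all genes. That scale is made from the members' own counts, so a change in their number is no result about them. The members' median SE of the age difference under TMM was 0.10 in the rumen, 0.15 in the omasum, 0.21 in the reticulum and 0.26 in the abomasum, with the same number of libraries in each.

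The membership itself depended on the scale more than on any library. Leaving out 1 library at a time and choosing again gave 81 to 98 of the 100 genes back, the fewest without abomasum d5 library 1, and 66 members were chosen in all 24 of these repeats. With TMM in place of the median 47 came back, with DESeq2 size factors 29, and with plain CPM 1. A choice from the 18 forestomach libraries alone shared 41. Over 39 settings the member chosen most often, named after its values were seen, was ENSOARG00000012046, in all but the plain CPM setting, with an SD of 0.135 and a geometric mean of 53.2 CPM. No member was chosen in every setting.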

How the data were processed

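RNA-seq of stomach epithelium from lambs gave 24 libraries, 3 for each of 4 chambers at d5 and d10. The authors deposited 1 table of raw read counts per Ensembl gene for the whole series. CASAVA 1.8 and TopHat2 2.0.13 are named in the submitters' processing notes; the sources used here give no counting program, genome build, annotation or strand, so overlapping and near-identical genes cannot be separated from each other. All columns matched a sample by title.

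CPM was computed from the counts and the column totals (Python 3.11.15, pandas 2.3.3, numpy 2.4.6). The members were the 100 of 5134 eligible genes with the smallest SD, as given above; the members and lists were chosen with earlier results of these data known. The study's methods use CPM and a rank test (Kruskal–Wallis) over ages in the rumen; a fit across all genes was used here in its place. Chambers were compared with edgeR 4.0.16 in R 4.3.3 (TMM, filterByExpr, quasi-likelihood test, 8 groups), and ages within each chamber from its 6 libraries. DESeq2 1.42.0, other scalings, no filter, other level limits and measures of spread, a replicate block and leaving out libraries were the alternatives. The procedures were tested on simulated data. The 95% intervals are those of the edgeR fits and reflect the spread between libraries.

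Named genes were the 6 members of smallest SD, the last gene inside and the first outside, the least and most abundant members, the last geNorm pair, and at most 2 called members in each direction with the largest fold change. A further member is named where a count was 1.

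Same-numbered rumen and reticulum libraries of the same age deviated together (r across genes 0.15 to 0.35, all 6 pairs above 0.1) and were taken as pairs, from the correlation and not from the labels. Rumen and omasum, rumen and abomasum, and d5 and d10 libraries did not pass this for every number. The block called 0 members between rumen and reticulum, beside 1037 of 16195 genes. The fit without it also called 0, beside 1209. The choice favoured such counts of 0, so nothing about pairing is read from them. The block of the chamber fit also joined the omasum and abomasum libraries by number.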

Additional observations from a re-analysis of the deposited data

Results flagged for a closer look

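In groups of 6 libraries of one chamber, a library was singled out when its gap to the nearest other library took more than 0.625 of the group's whole range. Of 48 groups tested, 6 had such a library, and chance gives about 1 in 20. The summed CPM of the members was 5990 in omasum d5 library 2, with the other omasum libraries at 8105 to 8982, and the same library had ENSOARG00000012741 at -0.16 relative to its mean on the log2 scale, with the others at 0.026 to 0.11. The median of the 27 abomasal genes was 60.7% of the abomasum level in that library. Reticulum d5 library 3 had ENSOARG00000007183 at 0.36, with the others at 0.056 to 0.17, and ENSOARG00000002125 at 0.23, with the others at -0.073 to 0.038. The members' median deviation there was 0.10. ENSOARG00000013001 stood at 0.24 in reticulum d10 library 1, with the others at -0.10 to 0.0036. ENSOARG00000008776 stood at -0.20 in rumen d10 library 3, with the others at -0.014 to 0.0020. What set these libraries apart was not tested.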

How the results depend on the processing

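Of the alternatives tried, 205 values were kept and 24 were not. A count was kept within 1.5-fold, or where 0 stayed 0, and the median SD within its spread over single libraries left out. A summed CPM was kept when its direction and its side of the threshold held, whatever its size. The kept values included 32 counts of 0 members called between rumen and reticulum, 30 between rumen and omasum and 12 for age in each chamber. The choice favoured these counts of 0, so they carry no support. Choosing the members again gave 47 of the 100 with TMM, 29 with DESeq2 size factors, 1 with plain CPM, 66 with a minimum of 20 CPM, 37 with the median absolute deviation, 42 with the SD within groups, 42 from the d5 libraries, 51 from the d10 libraries and 41 from the forestomach; leaving out 1 library gave 81 to 98. The median SD of genes chosen at one age and measured at the other was 0.20 from d5 to d10 and 0.19 in reverse. Members called between rumen and omasum were 0, beside 2443 of 16195 genes (range 0 to 1 over single libraries left out). They were 1 with DESeq2, beside 3203 of 18011 genes, and 1 without abomasum d5 replicate 1, beside 2806 of 16525. Between rumen and abomasum 19 members were called, beside 9044 of 16195 genes. With scaling by the members 8 were called, beside 9200 of 16195. DESeq2 called 33 beside 9570 of 18440, and 5 were called without a filter on low counts, beside 9138 of 22380. Without single libraries 6 to 34 were called, beside 8436 to 9265 genes. Of these, 6 were called without rumen d10 replicate 3 or omasum d10 replicate 3, and 10 without rumen d10 replicate 2. Without abomasum d10 replicate 1 there were 31, and without abomasum d5 replicate 2 there were 34. The replicate block called 18 members beside 9011 of 16195 genes, and the replicate block with scaling by the members called 8 beside 9233. Scaling by the members without omasum d5 replicates 1 and 2 also called 8, beside 9382 of 17038. Both of these combinations were chosen after seeing the data. The summed CPM of the members in the omasum differed from that of the rumen by -712, and by -907 to -309 without single libraries; the former, without omasum d10 replicate 3, passed the threshold of the exact permutation test and the latter, without omasum d5 replicate 2, did not. In the abomasum the difference was -2965, which passed that test. The choice kept genes that follow each library's median over the eligible genes, which was 1.45-fold lower in the abomasum than in the forestomach. Passing therefore restates the libraries' scale and carries no result about the members. The replicate block, an exact test exchanging signs within pairs, gave p 0.03125, the smallest that 6 pairs allow, with all 6 pairs lower. After adjustment its p was 0.094, which did not pass. The abomasum pairs, made by replicate number, had not passed the check of pairing. The cause was not tested for any of these changes. Depth limits little at the members' counts; the spread between libraries was widest in the abomasum, where the median SE of the members' age difference was 0.26.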
